A study of Homo sapiens with 12 samples.

Results

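The comparison described here sets 3 RNA-seq libraries of cells that received the copper chelator TEPA before low oxygen (TEPA+hypoxia 1 to 3) against 3 libraries of cells that met low oxygen without it (hypoxia 1 to 3). These are 6 of the 12 libraries of the study, chosen by their labels alone, and 14447 of the 51141 gene symbols in the count table had enough counts to be tested. All libraries come from EA.hy926, an established line made by fusing human umbilical vein endothelial cells with cells of the lung carcinoma line A549. In the TEPA+hypoxia group, TEPA was at 50 µM for 16 h, and the cells then spent a further 8 h in 1% oxygen. The hypoxia group spent 8 h in 1% oxygen without TEPA. The other 2 groups, also of 3 libraries, are control (normal oxygen, no TEPA) and TEPA (50 µM for 16 h and then a further 8 h at normal oxygen). Their levels are given beside the main comparison for some genes only. The line is a single hybrid clone. Nothing in the labels tells if the replicates are separate cultures, and p-values measure only the spread between these libraries. Levels are in CPM, the count of a gene scaled by its library's total and by TMM, a factor that offsets differences in composition. Fold changes are on the log2 scale, as TEPA+hypoxia minus hypoxia, with the standard error (SE) of the fit.

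TEPA is a polyamine that binds copper and is used to lower the copper available to cells. HIF-1 is the transcription factor that switches on genes of glucose use, blood vessel growth and mitophagy when oxygen is short. Its alpha subunit, encoded by HIF1A, is stable only at low oxygen, pairs with ARNT, binds hypoxia response elements and recruits the coactivators CREBBP and EP300. Copper has been described as needed for full HIF-1 activity at some of its targets, which is the question the title of the study names. Metallothioneins are small cysteine-rich proteins that bind copper and zinc. Their genes are driven by the metal sensor MTF1 through metal response elements.

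The stretches upstream of 3 genes that were lower in TEPA+hypoxia are shown because they hold the motifs those regulators are known to read. The letters in capitals mark, on either strand, TGCNCNC in MT1X (the core of the metal response element, with N for any base) and ACGTG or GCGTG in ANGPTL4 and BNIP3 (the core of the hypoxia response element). Sequences are from RefSeq on GRCh38.p14, 5′ to 3′ on the gene's strand, and end before any untranslated region that GENCODE 29 annotates. RefSeq and GENCODE can place a gene's start differently. The ANGPTL4 stretch precedes the RefSeq start but lies inside the GENCODE 29 span of the gene (8363289 to 8374373).
MT1X, metallothionein, chr16:56682220-56682423, + strand: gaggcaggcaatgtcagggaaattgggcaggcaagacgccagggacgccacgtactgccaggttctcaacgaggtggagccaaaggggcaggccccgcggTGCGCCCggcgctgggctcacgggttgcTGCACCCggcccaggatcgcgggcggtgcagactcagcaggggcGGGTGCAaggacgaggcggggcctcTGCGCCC
ANGPTL4, secreted lipase inhibitor, chr19:8363905-8364150, + strand: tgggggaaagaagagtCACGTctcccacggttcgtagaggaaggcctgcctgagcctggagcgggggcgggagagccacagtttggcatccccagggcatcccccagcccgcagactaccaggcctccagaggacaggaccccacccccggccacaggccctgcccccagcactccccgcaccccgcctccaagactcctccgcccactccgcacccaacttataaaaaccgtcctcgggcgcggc
BNIP3, mitophagy receptor, chr10:131982014-131982173, - strand: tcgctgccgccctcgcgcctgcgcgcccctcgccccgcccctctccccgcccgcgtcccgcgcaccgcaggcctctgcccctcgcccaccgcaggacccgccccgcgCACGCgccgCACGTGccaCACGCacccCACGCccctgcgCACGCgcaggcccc
In the 250 bases before the RefSeq start, MT1X held 4 matches to TGCNCNC and MT2A held 7. Of 34943 promoters of that length, 49.1% held at least 1 such match and 1.76% at least 4. BNIP3 held 6 matches to ACGTG or GCGTG at 5 places, because CACGTG reads as ACGTG on both strands, and ANGPTL4 and ADM held 1 each. Of all promoters, 43.2% held at least 1 of these and 3.21% at least 4. A match is a run of letters, and binding was not measured.

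Hypoxia 2 and 3 lay far from hypoxia 1 and from the other 9 libraries, so values against hypoxia 1 alone are given beside the main results. On the first principal component (76.2% of the variance) hypoxia 1 scored 11.8, hypoxia 2 and 3 scored 126 and 105, and TEPA+hypoxia 1 to 3 scored -24.3, -27.2 and -51.6. Total counts of the 6 libraries ran from 13406858 to 17648057, and 3 counts, the least taken as detection, came to 0.166 to 0.267 CPM. The endothelial label was borne out by 22 of 25 endothelial marker genes at 1 CPM or more in all 6 libraries, while EMCN, CLDN5 and TAL1 were at 0 in all 6.

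The difference between the groups followed transcript length. Genes with a known length were cut into 5 equal groups. In the group of shortest transcripts (up to 1712 bases) 62.6% were called lower in TEPA+hypoxia and 6.49% higher, and in that of the longest (from 5495 bases) 67.8% were called higher and 7.03% lower. From short to long, the median log2 fold change went from -0.84 through -0.36, 0.05 and 0.39 to 0.76. Against hypoxia 1 alone the medians were -0.33, -0.17, 0.00, 0.18 and 0.40. Over 13015 genes, each library's deviation from the mean correlated with length at a Spearman rho of -0.363, -0.517 and -0.544 in hypoxia 1 to 3 and 0.393, 0.425 and 0.559 in TEPA+hypoxia 1 to 3 (across genes, which are not replicates). With GC content rho was 0.126, 0.516 and 0.545, and -0.392, -0.416 and -0.510. Main values are therefore also given from a fit corrected for GC content and length, which uses the longest annotated transcript and can overstate a change where a shorter one is expressed. In bulk RNA a gradient of this kind, a change in RNA content and a change in transcription cannot be told apart.

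**Figure D1:**
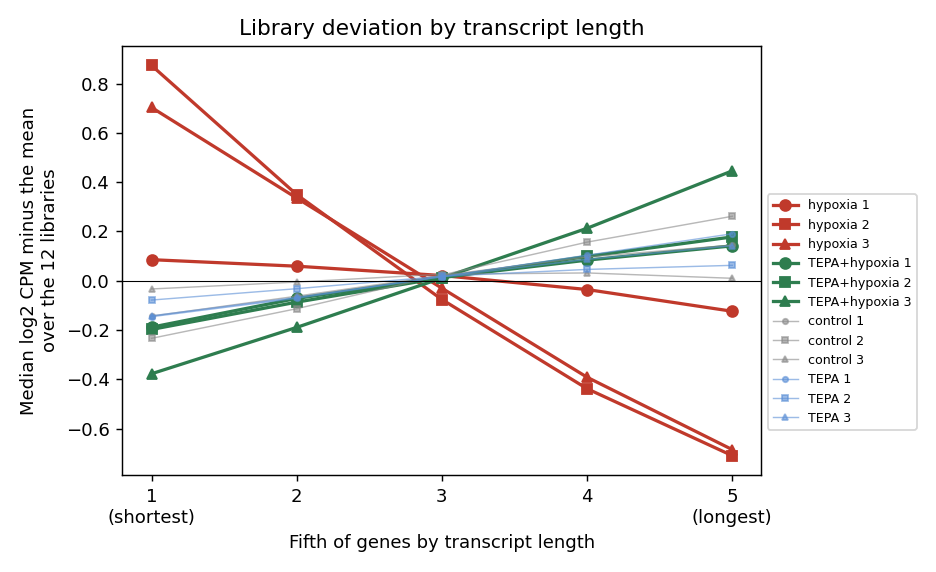
Median log2 CPM of each library minus the mean of the 12 libraries (y axis) in 5 equal groups of genes ordered by transcript length (x axis), with 1 line per library. Hypoxia 2 and 3 start at 0.87 and 0.70 in the shortest group and end at -0.71 and -0.69 in the longest, hypoxia 1 runs from 0.09 to -0.12, and TEPA+hypoxia 3 runs from -0.38 to 0.45.

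Across all genes, 4467 were called higher in TEPA+hypoxia (30.9% of those tested) and 4420 lower (30.6%) at an adjusted p under 0.05, so 61.5% of genes were called in 1 direction or the other. The 3 TEPA+hypoxia libraries lay all above the 3 hypoxia libraries in 32.2% of genes and all below them in 30.5%. Against hypoxia 1 alone, 1213 genes (7.98%) were called higher and 1090 (7.17%) lower of 15195. Of these, 1187 and 1078 were also called in the same direction against the whole group, and 0 in the opposite direction. With only these 4 libraries in the fit 0 genes were called by edgeR in either direction (2130 higher and 2036 lower had an unadjusted p under 0.05, and the smallest adjusted p was 0.0794). In the 10-library fit 1526 and 1295 genes were called by DESeq2, and 838 and 965 by limma-voom. Correcting for GC and length gave 3109 higher (23.9%) and 3183 lower (24.4%) of 13024 genes (48.3% in all). Of the genes called higher and lower without it, 255 and 170 were called in the opposite direction with it. Genes whose sign turned without a call are not in these counts. Correction and hypoxia 1 alone together gave 626 higher (4.65%) and 627 lower (4.66%) of 13458, 9.31% in all.

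Of the 3 lists tied to copper, metallothioneins with their regulator had the lowest median log2 change (-2.23 over 4 tested genes, against -0.37 for copper transport and 0.15 for copper enzymes). MT2A (chromosome 16, 56608199 to 56609497), the most abundant of them, stood at 1045, 4055 and 2767 CPM in hypoxia 1 to 3 and at 520.4, 487 and 566 CPM in TEPA+hypoxia 1 to 3. All TEPA+hypoxia libraries lay below all hypoxia libraries, and below the control libraries (660.2 to 859.5 CPM) and the TEPA libraries (613 to 688 CPM). The log2 fold change of MT2A was -2.32 ± 0.36 (adjusted p = 0.00217). It fell by 0.99 against hypoxia 1 alone (adjusted p = 0.00679) and by 0.74 with the correction.

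MT1E (chromosome 16, 56625475 to 56627112) stood at 53.7, 153 and 107 CPM in hypoxia and at 21.2, 21.2 and 20.4 CPM in TEPA+hypoxia. It was at 20.9, 21.0 and 19.9 CPM in TEPA and at 32.2 to 37.0 CPM in control. The 6 libraries with TEPA thus shared a narrow range at either oxygen level, while the libraries without it were all higher. The fall of MT1E was -2.32 ± 0.28 (adjusted p = 0.00217), -1.35 ± 0.11 against hypoxia 1 alone (adjusted p = 2.25e-04) and -1.25 ± 0.12 with the correction. MT1X had the same order, with 40.6, 126 and 98.7 CPM in hypoxia, 20.7, 19.7 and 19.6 CPM in TEPA+hypoxia, 19.0 to 19.5 CPM in TEPA and 24.5 to 29.5 CPM in control (log2 -2.14 ± 0.31, and -1.01 against hypoxia 1 alone). The gene of their regulator MTF1 went the other way, from 12.7, 8.96 and 10.4 CPM to 19.8, 21.8 and 25.0 CPM (1.05 ± 0.16, adjusted p = 0.00217). Against hypoxia 1 alone MTF1 rose by 0.81, with the correction by 0.30, and with both it was not called (0.40, adjusted p = 0.0548). The other 8 metallothionein genes of the list had at most 2 counts in any library and were not tested. Metallothionein genes are near-copies of each other, so how reads were shared among them is uncertain.

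Of the other genes that move copper, 7 of 14 tested members fell and 3 rose, where 30.6% and 30.9% of all genes did, with a median of -0.37 against 0.03 over all genes. When hypoxia 1 stood alone, 3 fell and 1 rose, where 7.17% and 7.98% of all genes did. The chaperone gene ATOX1, whose product hands copper to the secretory pathway pumps, stood at 46.0, 169 and 120.0 CPM in hypoxia and at 30.9, 30.5 and 26.7 CPM in TEPA+hypoxia (log2 -1.92 ± 0.35, and -0.64 ± 0.16 against hypoxia 1 alone, adjusted p = 0.0248). COMMD1, a regulator of copper export, fell by 1.60 and by 0.86 against hypoxia 1 alone. SCO2, which loads copper into cytochrome c oxidase, fell by 1.62 and by 0.59, and its call ended with the correction (-0.13, adjusted p = 0.160). CCS, the chaperone of superoxide dismutase, and COX17, which carries copper to mitochondria, changed by -1.49 and -1.31, but against hypoxia 1 alone they were at -0.32 and -0.48 and neither was called. SOD1, the copper-zinc superoxide dismutase, went from 295, 546 and 489 CPM to 236, 223 and 193 CPM (-1.03 ± 0.19, and -0.43 ± 0.12 against hypoxia 1 alone, adjusted p = 0.0349). The importer SLC31A1 was not called, at 44.7, 33.9 and 39.7 CPM against 46.0, 44.9 and 48.9 CPM (0.24 ± 0.11, adjusted p = 0.0785), and the correction gave it a call in the other direction (-0.40, adjusted p = 0.00644). XIAP, an apoptosis inhibitor that binds copper, was called higher, at 0.388, 0.441 and 0.178 CPM in hypoxia and 1.92, 2.51 and 4.08 CPM in TEPA+hypoxia. Hypoxia 3 lay under its floor of 0.267 CPM, so the size of the change is uncertain.

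**Figure D2:**
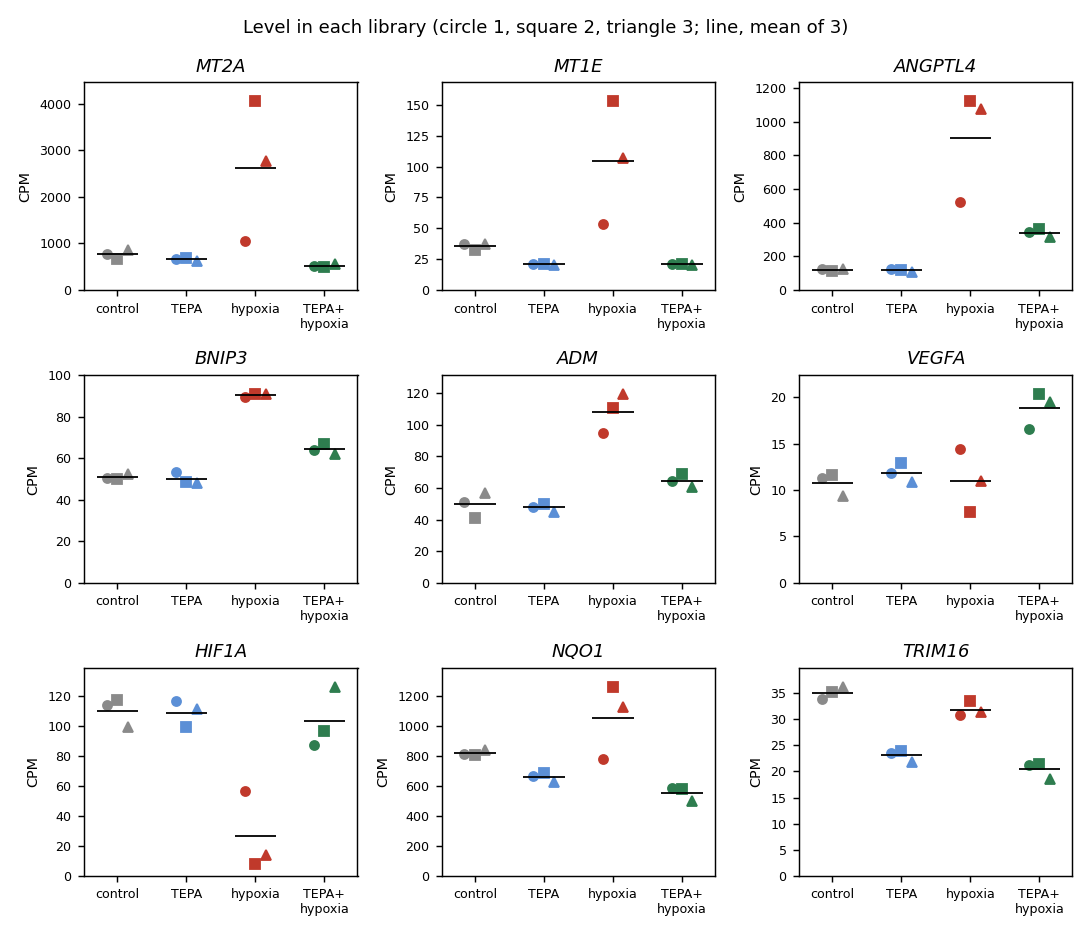
CPM of 9 genes (y axis, from 0) in each library of the 4 groups (x axis), with a line at the mean of 3. MT2A, MT1E and ANGPTL4 are far higher in hypoxia 2 and 3 than in hypoxia 1, BNIP3 and TRIM16 are level across the 3 hypoxia libraries, and in each of these 5 genes all TEPA+hypoxia libraries lie below all hypoxia libraries.

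HIF target genes did not move as 1 block. Of 34 tested, 7 fell and 10 rose, shares of the same order as those over all genes (30.6% and 30.9%), and the median was 0.12. With the correction 8 fell and 8 rose, where 24.4% and 23.9% of all genes did. Against hypoxia 1 alone the median was 0.02, beside 0.03 over all genes, and 14 of 34 members had a negative change. ANGPTL4, FAM162A, ADM and BNIP3 were among the lower members there, and HK2 and RLF among the higher ones.

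BNIP3 (chromosome 10, 131966455 to 131982013), a receptor that marks mitochondria for mitophagy, gave the most even result. It stood at 89.7, 91.0 and 90.8 CPM in hypoxia and at 64.1, 66.8 and 62.3 CPM in TEPA+hypoxia. The 3 hypoxia libraries agreed closely here although 2 of them lay apart elsewhere, and TEPA+hypoxia lay between hypoxia and the normal oxygen groups (49.8 to 52.5 CPM in control, 48.2 to 53.3 CPM in TEPA). BNIP3 fell by 0.49 (SE 0.08, adjusted p = 0.00217), and the change was -0.47 against hypoxia 1 alone (adjusted p = 0.0189), -0.48 with the correction and -0.41 with both.

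ANGPTL4, whose secreted product blocks lipoprotein lipase, maps to chromosome 19, 8363289 to 8374373. It stood at 520.3, 1122 and 1074 CPM in hypoxia and at 347, 359 and 317 CPM in TEPA+hypoxia. The groups did not overlap, and both lay above the normal oxygen libraries (106 to 124 CPM). The fall was -1.41 ± 0.23 (adjusted p = 0.00217), -0.60 ± 0.11 against hypoxia 1 alone (adjusted p = 0.0178) and -0.32 ± 0.08 with the correction, and it was no longer called with both (-0.20, adjusted p = 0.137). ADM, the gene of the vasodilator peptide adrenomedullin, went from 95.0, 111 and 119 CPM to 64.5, 69.2 and 60.5 CPM (-0.74 ± 0.13, and -0.54 ± 0.15 against hypoxia 1 alone). The 2 groups of ADM did not overlap, but the correction ended its call and turned its sign (0.06, adjusted p = 0.663).

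Other HIF targets were not called or were higher with TEPA. Among the higher ones, RLF was called lower in hypoxia than in control (-0.76, edgeR adjusted p = 0.00766). SLC2A1, the glucose transporter, was at 132, 98.2 and 119 CPM in hypoxia and at 111, 122 and 109 CPM in TEPA+hypoxia (-0.03 ± 0.12, adjusted p = 0.838). The groups overlapped. DDIT4, a brake on mTOR, overlapped too, at 18.3, 20.6 and 27.7 CPM against 21.5, 23.4 and 20.4 CPM (-0.03 ± 0.19, adjusted p = 0.909), and was called higher with the correction (0.83, adjusted p = 0.00322). VEGFA, the main vascular growth factor, was at 9.33 to 11.6 CPM in control and 10.9 to 12.9 CPM in TEPA. It was not called between hypoxia and control (0.04, edgeR adjusted p = 0.888). Its levels were 14.4, 7.64 and 11.0 CPM in hypoxia and 16.5, 20.3 and 19.5 CPM in TEPA+hypoxia, above every hypoxia library. It rose by 0.77 (SE 0.20, adjusted p = 0.00747) and was not called against hypoxia 1 alone (0.39, adjusted p = 0.131). PFKFB3, an activator of glycolytic flux, had the largest rise of the list at 3.17, and it was not called against hypoxia 1 alone (1.85).

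Of 14 tested components of the HIF machinery 9 rose and 2 fell (median 0.66). With the correction 7 rose and 5 fell (median 0.30). The median was 0.45 against hypoxia 1 alone and 0.17 with both, beside 0.03 over all genes in each. Over all genes 30.9% rose and 30.6% fell, and 23.9% and 24.4% with the correction. HIF1A (chromosome 14, 61695513 to 61748259) stood at 56.7, 8.08 and 14.0 CPM in hypoxia and at 87.6, 96.5 and 126 CPM in TEPA+hypoxia. Hypoxia 2 and 3 were far below hypoxia 1, all 3 were below TEPA+hypoxia, and the TEPA+hypoxia libraries spanned the levels of control (99.3 to 117 CPM). HIF1A rose by 1.97 (SE 0.52, adjusted p = 0.0077), by 0.87 ± 0.17 against hypoxia 1 alone (adjusted p = 0.0183) and by 1.48 with the correction. EPAS1, which encodes the alpha subunit of HIF-2, went from 177, 105 and 121 CPM to 214, 222 and 285 CPM (0.83 ± 0.18, and 0.45 ± 0.14 against hypoxia 1 alone, adjusted p = 0.0476). ARNT, the shared partner subunit, rose by 0.71 ± 0.13 and by 0.45 against hypoxia 1 alone, but was not called with the correction (0.19, adjusted p = 0.0540).

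The coactivator genes CREBBP and EP300 rose by 1.32 ± 0.22 and 1.74 ± 0.31. CREBBP was at 69.0, 38.1 and 39.8 CPM in hypoxia, at 107, 113 and 147 CPM in TEPA+hypoxia and at 94.9 to 114 CPM in control. Hypoxia 1 was thus the highest of its group and still below TEPA+hypoxia. Beside hypoxia 1 alone they rose by 0.83 and 1.04 (adjusted p = 0.0189 and 0.0183). Of the genes that destroy or silence the alpha subunits, RBX1, a part of the VHL ubiquitin ligase, and EGLN2, a prolyl hydroxylase, fell by 1.13 and 1.09 and, against hypoxia 1 alone, by 0.54 and 0.40. VHL was at -0.16 and HIF1AN, the asparagine hydroxylase, at 0.06, neither called, and with the correction both were called lower (-0.55 and -0.80).

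Glycolysis genes were lower more often than higher, with 10 of 23 called lower and 4 higher (median -0.15). With the correction the counts were again 10 and 4. Their median was -0.20 against hypoxia 1 alone and -0.08 with both, beside 0.03 over all genes in each. Of all genes 30.6% were called lower and 30.9% higher, and 24.4% and 23.9% with the correction. ALDOA (aldolase) stood at 2000.3, 4197 and 3688 CPM in hypoxia and at 1448, 1489 and 1336 CPM in TEPA+hypoxia, near the control levels of 1192 to 1395 CPM. ALDOA, GAPDH, TPI1 and PKM, enzymes from the aldolase step on, fell by 1.21, 1.09, 0.98 and 0.76. Against hypoxia 1 alone they fell by 0.48, 0.40, 0.40 and 0.34, each called. With the correction ALDOA and TPI1 were no longer called (-0.13 and -0.12). LDHA and PGK1, both known HIF targets, were at -0.12 and -0.04 and not called, but with the correction both were called lower (-0.24 and -0.72). The hexokinase gene HK2 rose by 1.07 and by 0.53 against hypoxia 1 alone.

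Genes of angiogenesis signalling went in both directions, as did all genes tested (30.9% called higher and 30.6% lower, and 23.9% and 24.4% with the correction). Of 30 tested, 12 rose and 9 fell (median 0.14), and 8 and 4 did so with the correction. Their median against hypoxia 1 alone was 0.02, beside 0.03 over all genes. The growth factor gene VEGFA rose, as given above, while PGF (placental growth factor) went from 104, 224 and 204 CPM to 72.6, 74.1 and 58.9 CPM (-1.37 ± 0.23, and -0.59 against hypoxia 1 alone), VEGFB fell by 1.43 and 0.54, and APLN (apelin) fell by 0.45 and 0.46. KDR, the main VEGF receptor, went from 5.24, 2.87 and 4.37 CPM to 9.20, 8.60 and 10.1 CPM (1.16 ± 0.22, and 0.83 against hypoxia 1 alone, adjusted p = 0.0321), and TEK, the receptor of angiopoietins, rose by 2.40 and 1.08. With the correction VEGFB was at -0.01 and not called, and PGF was at -0.28, KDR at 0.54 and TEK at 1.96.

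Antioxidant genes that NRF2 activates were mostly lower. Of 24 tested, 14 fell and 4 rose (median -0.70). With the correction 12 fell and 1 rose. The median was -0.36 against hypoxia 1 alone and -0.18 with both, beside 0.03 over all genes in each. All genes tested had 30.6% called lower and 30.9% higher, and 24.4% and 23.9% with the correction. NQO1, a quinone reductase, stood at 783, 1262 and 1126 CPM in hypoxia and at 586, 578 and 503 CPM in TEPA+hypoxia. Every TEPA+hypoxia library was also below every library of control (810.1 to 841 CPM) and of TEPA (629 to 689.6 CPM). NQO1 fell by 0.93 (SE 0.15, adjusted p = 0.00217), by 0.49 against hypoxia 1 alone (adjusted p = 0.0183) and by 1.17 with the correction.

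EPHX1, PIR and TXN, an epoxide hydrolase, a redox-sensing iron protein and thioredoxin, fell by 1.23, 1.08 and 1.35, and by 0.64, 0.63 and 0.62 against hypoxia 1 alone. PGD, an enzyme of the pentose phosphate pathway, fell by 0.68 and 0.39, and its call ended with the correction (-0.13, adjusted p = 0.0717). Corrected values of EPHX1, PIR and TXN were -0.42, -0.45 and -0.87, each called. HMOX1, the heme oxygenase, was at 24.7, 32.5 and 34.5 CPM in hypoxia and at 17.7, 19.3 and 14.6 CPM in TEPA+hypoxia (-0.83 ± 0.17, adjusted p = 0.00263). It was not called against hypoxia 1 alone (-0.52, adjusted p = 0.0791) or with the correction (0.00, adjusted p = 0.996). At normal oxygen, where different libraries are compared, 20 of 24 NRF2 targets had a negative difference between TEPA and control, against 48.9% of all genes. That is not particular to NRF2 targets. It held for 28 of 35 proteasome, 19 of 24 cholesterol synthesis and 12 of 13 mitochondrially encoded genes. Other lists were nearer to all genes, such as cytosolic ribosomal proteins (44 of 79) and the nuclear respiratory chain (29 of 67).

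**Figure D3:**
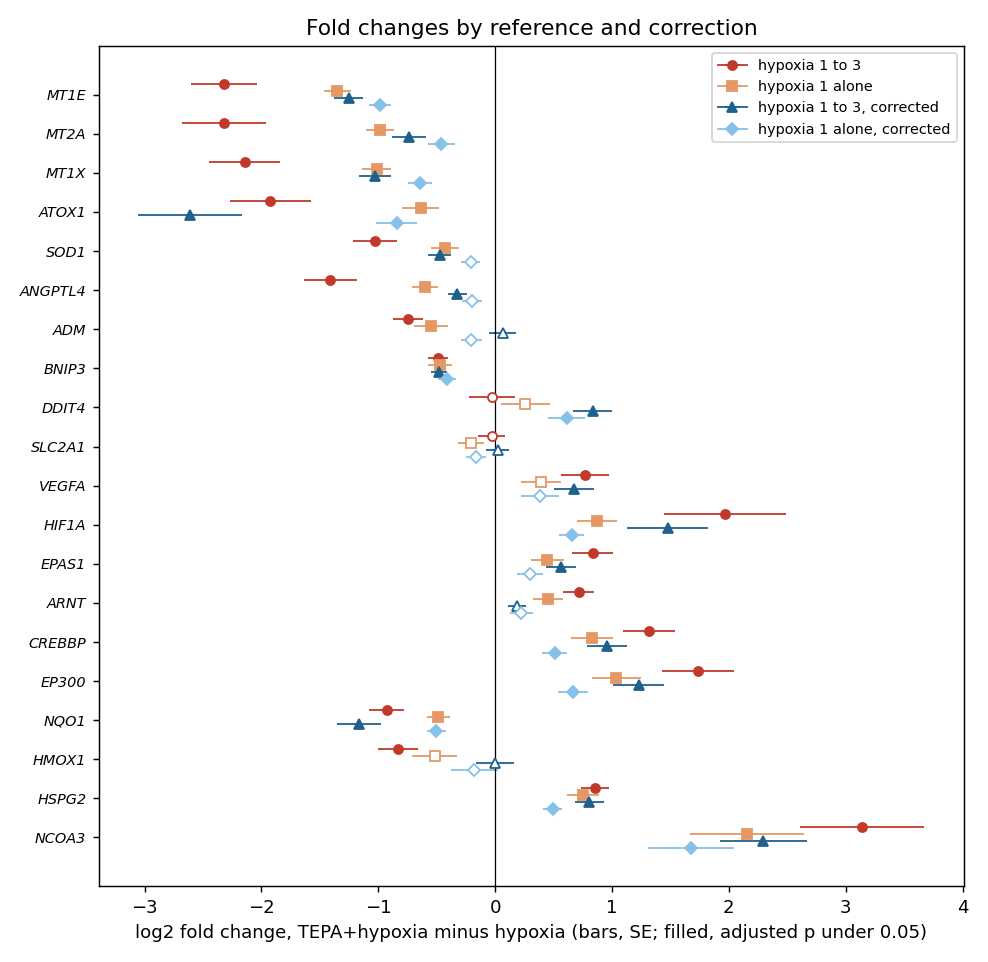
Log2 fold change with SE (x axis) of 20 genes in TEPA+hypoxia against hypoxia 1 to 3 and against hypoxia 1 alone, each without correction and corrected for GC and length. Filled symbols passed an adjusted p under 0.05. The 4 values of BNIP3 lie between -0.49 and -0.41, while those of MT2A run from -2.32 to -0.46 and those of ADM cross 0.

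Nearly all ribosomal and respiratory chain genes fell, where 30.6% of all genes did. The ribosomal share of counts was highest in the 2 hypoxia libraries that stood apart. Of 79 cytosolic ribosomal protein genes 76 fell and 1 rose (median -1.47). Against hypoxia 1 alone their median was -0.54, beside 0.03 over all genes. RPL38 stood at 269, 1001 and 637 CPM in hypoxia and at 148, 156 and 127 CPM in TEPA+hypoxia, a log2 change of -2.15 ± 0.35 and of -0.89 ± 0.16 against hypoxia 1 alone. RPS21, RPL27 and RPS13 fell by 2.19, 1.70 and 1.73, and by 0.94, 0.74 and 0.74 against hypoxia 1 alone. RPL36A was the exception, with a rise of 0.99 (0.77 against hypoxia 1 alone). Ribosomal protein genes took 5.08%, 10.0% and 8.63% of the counts in hypoxia and 4.01%, 3.98% and 3.17% in TEPA+hypoxia (exact permutation test, two-sided, p = 0.1, the smallest that 3 against 3 allows).

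Of 67 nuclear genes of the respiratory chain and ATP synthase, 61 fell and 1 rose (median -1.34). Their median against hypoxia 1 alone was -0.58, beside 0.03 over all genes. COX7C, a subunit of the copper enzyme cytochrome c oxidase, went from 83.8, 183 and 152 CPM to 53.4, 54.6 and 44.6 CPM (-1.45 ± 0.22, and -0.71 ± 0.13 against hypoxia 1 alone). The complex I genes NDUFB1, NDUFA1 and NDUFC2 fell by 2.11, 1.91 and 1.20, and by 1.07, 1.01 and 0.62 against hypoxia 1 alone. NDUFS1, the large complex I subunit, was the gene that rose (0.63), and with the correction it was called lower (-0.33, adjusted p = 0.0136). Most of these genes are short, with a median transcript of 1171 bases for the ribosomal list and 1263 for the respiratory chain against 3134 over all genes. With the correction 68 of 79 and 59 of 67 members were still called lower (24.4% of all genes were), at medians of -0.73 and -0.78. With the correction and hypoxia 1 alone the medians were -0.29 and -0.38, beside 0.03 over all genes.

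Genes of chromatin regulation, whose transcripts are long (median 8976.5 bases), made up the opposite pole (over all genes 30.9% called higher and 30.6% lower). Of 34 tested, 30 rose and 3 fell (median 1.34). Against hypoxia 1 alone the median of 35 members was 0.78, beside 0.03 over all genes. NCOA3, a steroid receptor coactivator, went from 4.08, 1.18 and 0.624 CPM to 12.1, 14.4 and 27.9 CPM (3.14 ± 0.53, and 2.16 ± 0.49 against hypoxia 1 alone). In control NCOA3 was at 11.8 to 20.0 CPM. CHD9, a chromatin remodeller, went from 4.85, 3.23 and 3.21 CPM to 18.9, 19.7 and 48.2 CPM (2.93 ± 0.41, and 2.58 against hypoxia 1 alone, adjusted p = 0.0203), and TEPA+hypoxia 3 was the highest library in both. KMT2A, a histone methyltransferase, MED1, a Mediator subunit, and ARID1B, a remodeller subunit, rose by 1.47, 1.32 and 2.12, and by 1.13, 0.90 and 1.92 against hypoxia 1 alone. CHD4, CHD8 and SETD2 fell by 0.83, 0.59 and 0.46, and none of these 3 was called against hypoxia 1 alone. With the correction 24 members were called higher and 3 lower (median 0.64), where 23.9% and 24.4% of all genes were.

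Extracellular matrix genes rose in 15 of 33 cases and fell in 4 (median 0.25), and 13 and 5 did so with the correction. The shares over all genes were 30.9% and 30.6%, and 23.9% and 24.4% with the correction. Their median was 0.20 against hypoxia 1 alone and 0.09 with both, beside 0.03 over all genes in each. HSPG2 (chromosome 1, 21822245 to 21937297), the gene of the basement membrane proteoglycan perlecan, stood at 802, 712 and 716 CPM in hypoxia. It was at 1190.1, 1262 and 1585 CPM in TEPA+hypoxia and at 928 to 1029 CPM in control. The 3 hypoxia libraries were close together, and the groups did not overlap. HSPG2 rose by 0.86 (SE 0.12, adjusted p = 0.00217), by 0.75 against hypoxia 1 alone (adjusted p = 0.0178) and by 0.81 with the correction. COL5A1, a fibrillar collagen, went from 7.76, 4.55 and 4.46 CPM to 13.9, 13.6 and 19.0 CPM (1.46 ± 0.22, 1.01 against hypoxia 1 alone and 1.34 with the correction). The laminin gene LAMC1 rose by 0.81 and by 0.51 against hypoxia 1 alone, but by 0.16 with the correction, and it was not called with both (0.14, adjusted p = 0.139). TIMP1, an inhibitor of matrix proteases, fell by 1.68, by 0.60 against hypoxia 1 alone and by 0.46 with the correction, and was not called with both (-0.18, adjusted p = 0.104).

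**Figure D4:**
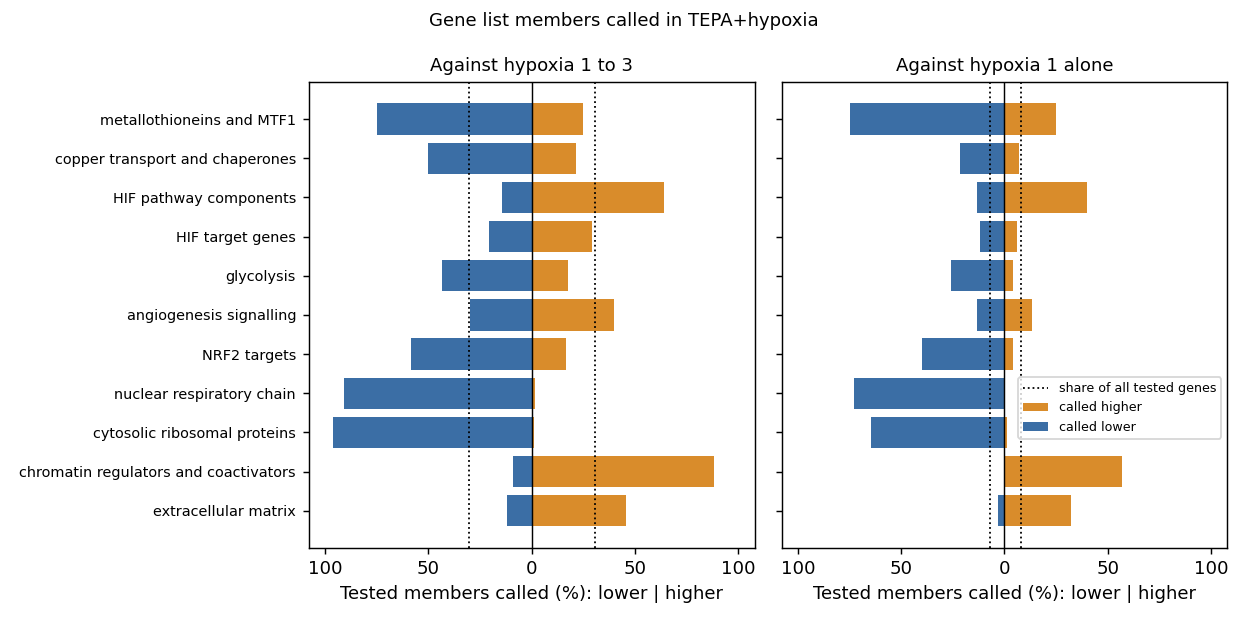
Share of tested members (x axis, percent) of 11 gene lists called lower (left of 0) or higher (right of 0) in TEPA+hypoxia, against hypoxia 1 to 3 in the left panel and against hypoxia 1 alone in the right panel. Dotted lines mark the shares over all tested genes, 30.6% lower and 30.9% higher on the left and 7.17% and 7.98% on the right. Against hypoxia 1 to 3 the ribosomal and respiratory chain bars reach farthest to the lower side, against hypoxia 1 alone the metallothionein bar (3 of 4 genes) and then the respiratory chain bar do, and the chromatin bar reaches farthest to the higher side in both panels, while the bars of HIF target genes stay near the dotted lines.

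The coding genes with the largest changes were mostly short where lower and long where higher. Among called genes with at least 5 CPM and no overlap, the 6 lowest were C4orf48 (-3.05), TYMP (-2.79), ROMO1 (-2.68), TMEM160 (-2.53), ATP5I (-2.46) and METRN (-2.42). C4orf48 stood at 24.9, 157 and 99.4 CPM in hypoxia and at 12.5, 14.1 and 7.28 CPM in TEPA+hypoxia. ROMO1, a small mitochondrial inner membrane protein, and ATP5I, a subunit of ATP synthase, changed by -1.24 and -1.14 against hypoxia 1 alone (adjusted p = 0.0178 for each). TYMP, C4orf48 and METRN were called there too, at -1.20, -1.13 and -1.06, but TMEM160 was not (-0.89, adjusted p = 0.0852). The 6 highest were CRYBG3 (3.89), MBNL1 (3.24), MIB1 (3.20), ZBED6 (3.18), NCOA3 (3.14) and TCF12 (3.05), and all 6 were called against hypoxia 1 alone, at 1.95 to 2.97. CRYBG3 stood at 1.88, 0.882 and 0 CPM in hypoxia and at 9.26, 9.97 and 24.8 CPM in TEPA+hypoxia, and the 0 in hypoxia 3 makes the size of its change uncertain. In hypoxia 2, MIB1 (0.220 CPM) was at the floor of 3 counts and MBNL1 (0.294 CPM) close to it, so their sizes are uncertain too. MBNL1 encodes a splicing regulator, MIB1 a ubiquitin ligase of Notch signalling and TCF12 a basic helix-loop-helix factor. With the correction the 6 lowest were at -1.74 (METRN) to -0.68 (TMEM160), and the 6 highest at 2.16 (ZBED6) to 2.89 (CRYBG3).

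Ordered by the difference from hypoxia 1 alone, MT1E led the lower side at -1.35, followed by ROMO1 at -1.24, TYMP at -1.20 and, between -1.14 and -1.12, PET100, ATP5I, TMEM256, C4orf48 and ITPKA. Against the whole group the 6 genes above and PET100 (-2.41) had larger falls than MT1E. On the higher side CRYBG3 at 2.97 was followed by CHD9 (2.58), MIB1 (2.56), SYNE2 (2.50), ZBED6 (2.37), NCOA3 (2.16), MBNL1 (2.15) and KIAA0754 (2.01). Of these 8 lower genes all but TYMP (1630 bases) and ITPKA (1824 bases) have transcripts of 365 to 729 bases. The 8 higher genes have transcripts of 6458 to 24828 bases. Correction and hypoxia 1 alone together brought the lower genes to -0.98 (MT1E) to -0.60 (C4orf48). The higher genes were then at 1.36 (KIAA0754) to 2.37 (CRYBG3).

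Some genes had similar levels in all 3 hypoxia libraries, although hypoxia 2 and 3 still took part in their scaling and calls. Of 634 coding genes at 5 CPM or more that were called in the same direction with and without hypoxia 2 and 3 and with and without the correction, and whose groups did not overlap, 34 had hypoxia levels within 1.25 times of each other (a limit chosen after the values were seen). Of these, 18 were lower in TEPA+hypoxia and 16 higher, with log2 changes from -0.74 to 1.48. The lower genes included BNIP3, ERH (-0.74), TRIM16 (-0.64), APLN (-0.45), HSPA5 (-0.41), FDFT1 (-0.37) and SUMO2 (-0.35). HSPA5, the main chaperone of the endoplasmic reticulum, stood at 1967, 2020.1 and 2100.2 CPM in hypoxia. It was at 1541, 1502 and 1553 CPM in TEPA+hypoxia and at 1400 to 1507 CPM in control. Apelin, the secreted vascular peptide encoded by APLN, went from 145, 134 and 151 CPM to 103, 111 and 102 CPM. The higher genes included HSPG2 and POLR2A, the largest subunit of RNA polymerase II, which went from 459, 434 and 433 CPM to 609, 648 and 765 CPM (0.61). ZNF609, IL31RA and PRPF8, a core part of the spliceosome, were higher by 1.48, 1.05 and 0.70. With the correction the change was -0.87 for HSPA5, 1.20 for POLR2A, 0.27 for PRPF8, 0.81 for HSPG2 and -0.48 for BNIP3. The correction took POLR2A as a transcript of 2083 bases, and its corrected value depends on that length.

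**Figure D5:**
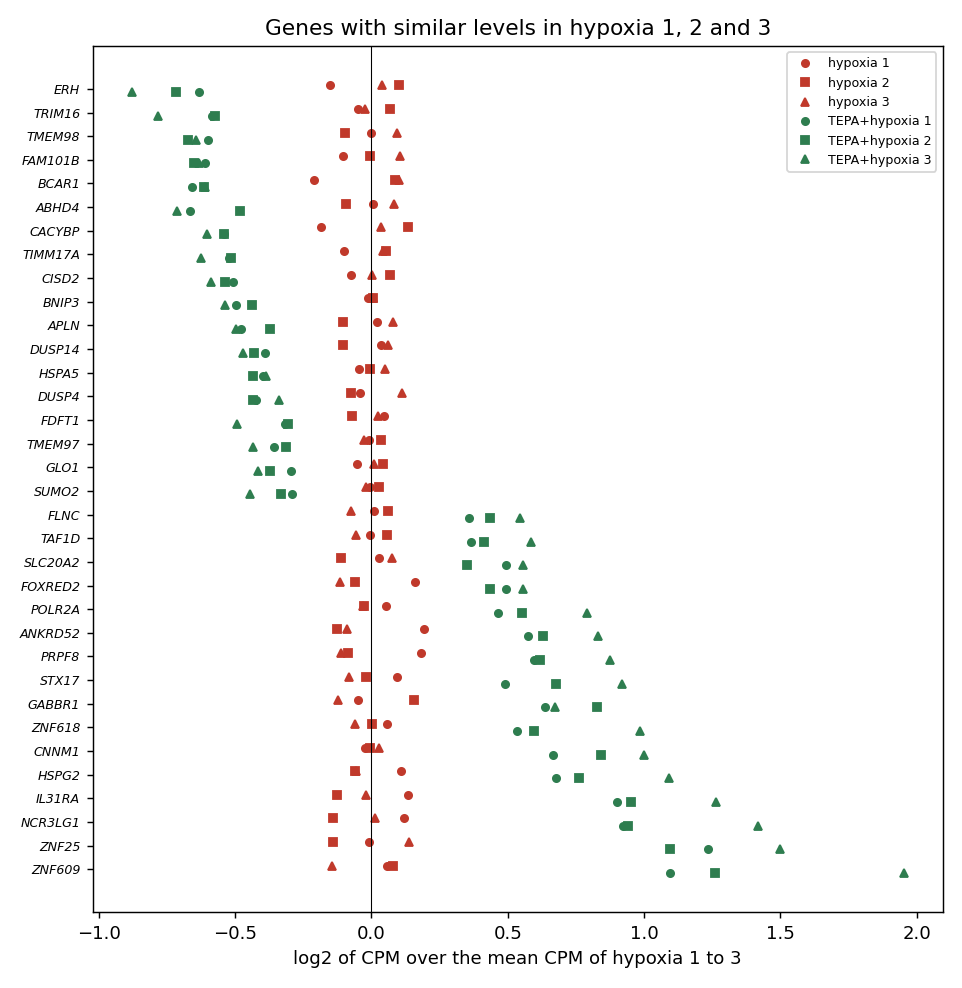
Log2 of CPM over the mean of hypoxia 1 to 3 (x axis) for the 34 genes whose hypoxia libraries lay within 1.25 times of each other, with 1 symbol per library. TEPA+hypoxia symbols lie left of all hypoxia symbols in the 18 genes at the top and right of them in the 16 genes below, and TEPA+hypoxia 3 is the farthest right in 15 of the latter.

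Of these 34 genes, TRIM16 alone was also called between TEPA and control, in the edgeR fit without hypoxia 2 and 3 (adjusted p = 0.0389). TRIM16, a ubiquitin ligase gene and known NRF2 target, stood at 30.8, 33.4 and 31.4 CPM in hypoxia, 21.3, 21.4 and 18.5 CPM in TEPA+hypoxia, 33.9, 35.1 and 36.2 CPM in control and 23.6, 23.9 and 21.7 CPM in TEPA. All 6 libraries with TEPA lay below all 6 without it. The log2 difference was -0.64 ± 0.10 at low oxygen and -0.60 ± 0.10 at normal oxygen. Its near-copy TRIM16L, with which it may share reads, was at -0.74 and -0.67, and HMOX1 at -0.83 and -0.91. By edgeR, 0 genes were called between TEPA and control over all 12 libraries (289 at an unadjusted p under 0.05, 1 higher and 5 lower by DESeq2, 0 by limma-voom). Without hypoxia 2 and 3 in the fit, 4 were called lower there, MT1E (-0.78), TRIM16, TRIM16L and HMOX1 (adjusted p = 0.00596 for MT1E and 0.0389 for the others).

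The TEPA effect at low oxygen was then set against that at normal oxygen, as the difference of the 2 log2 fold changes. It was called higher for 2498 genes (17.3%) and lower for 3113 (21.5%), 38.8% in all. The difference was -2.11 ± 0.49 for MT2A and -1.37 ± 0.32 for ANGPTL4 (adjusted p = 0.0236 for each). BNIP3 was at -0.46 ± 0.12 (adjusted p = 0.0236), MT1E at -1.54 and HIF1A at 1.98 (adjusted p = 0.0464). VEGFA (0.62, adjusted p = 0.0938) and EPAS1 (0.61, adjusted p = 0.0696) were not called, nor were TRIM16 (-0.04) and HMOX1 (0.08). Without hypoxia 2 and 3, 0 genes were called in either direction by edgeR (4117 had an unadjusted p under 0.05, and the smallest adjusted p was 0.0643), 0 by limma-voom, and 750 and 631 by DESeq2. The counts also fell to 0 without control 1, control 2, hypoxia 3, TEPA+hypoxia 3 or TEPA 2.

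The remaining gene lists are given as members called higher and lower, where 30.9% and 30.6% of all genes were called against hypoxia 1 to 3. Mitochondrial ribosomal proteins had 0 and 60 of 72, proteasome subunits 4 and 27 of 35, lysosomal genes 6 and 21 of 33 and polyamine metabolism 3 and 11 of 18. Cholesterol synthesis had 6 and 10 of 24, endoplasmic reticulum folding 7 and 9 of 22, heat shock proteins 5 and 9 of 22, the integrated stress response 5 and 8 of 23 and immediate early genes 3 and 7 of 25. Iron handling had 10 and 6 of 20, zinc transporters 7 and 4 of 16, copper enzymes 3 and 2 of 12, JmjC histone demethylases 10 and 2 of 16, and SR splicing factors with CLK kinases 15 and 3 of 25. Mitochondrially encoded genes had 5 and 5 of 13, DNA replication and mitosis 13 and 13 of 36, nuclear long noncoding RNAs 3 and 3 of 7, and targets of the aryl hydrocarbon receptor 2 and 2 of 6.

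Fewer members of these lists were called against hypoxia 1 alone, where the shares over all genes were 7.98% and 7.17%. Mitochondrial ribosomal proteins had 0 and 26, proteasome subunits 1 and 12, lysosomal genes 2 and 3, polyamine metabolism 1 and 4, heat shock proteins 0 and 5, JmjC demethylases 4 and 1 and SR factors with CLK kinases 7 and 1. Immediate early genes had 0 and 1, the integrated stress response 1 and 2, cholesterol synthesis 1 and 3, iron handling 2 and 3, zinc transporters 2 and 1, and endoplasmic reticulum folding 3 and 3. DNA replication and mitosis had 5 and 4, mitochondrially encoded genes 2 and 2, copper enzymes 1 and 2, nuclear long noncoding RNAs 2 and 0, and aryl hydrocarbon receptor targets 0 and 1.

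The correction for GC and length changed the balance of several lists, beside 23.9% and 24.4% of all genes. Immediate early genes then had 12 higher and 2 lower, the integrated stress response 9 and 1, mitochondrially encoded genes 10 and 1, nuclear long noncoding RNAs 0 and 5 and zinc transporters 5 and 7. Lysosomal genes had 5 and 10, polyamine metabolism 3 and 4, iron handling 6 and 6 and SR factors with CLK kinases 9 and 6. Mitochondrial ribosomal proteins had 2 higher and 45 lower, and proteasome subunits 3 and 22.

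Markers of other cells moved with the groups too. Summed epithelial markers, which the A549 parent can supply, ran from 7947 to 18407 CPM in hypoxia and from 5985 to 6850 CPM in TEPA+hypoxia, with 6 of 19 genes at 1 CPM or more in all 6 libraries. Endothelial markers ran from 6309 to 10157 and from 5548 to 5791 CPM, with 9 called higher and 8 lower of 22 tested. Fibroblast and mural markers were at 92.8 to 129 and 142 to 159 CPM (4 of 17 genes at 1 CPM or more in all 6, 2 called higher and 1 lower of 6). Leukocyte markers were at 168 to 206 and 150 to 163 CPM (2 of 19 genes, 0 higher and 1 lower of 2). Among epithelial markers 2 were called higher and 5 lower of 7. Their median was -1.04, -0.27 against hypoxia 1 alone and 0.03 with the correction. Over all genes 30.9% were called higher and 30.6% lower. The part of these markers in the other differences was not tested.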

How the data were processed

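The authors deposited 1 table of raw read counts per gene symbol for 12 RNA-seq libraries. Per the labels' protocols, TRIzol served for extraction, and a directional kit was used on RNA selected by its poly(A) tail. HISAT2 2.1.0, DESeq and GRCh38 are named in the submitters' processing notes. Not given in the sources used here: counter, annotation and strand option.

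The model for these counts was edgeR 4.0.16 under R 4.3.3 (filterByExpr by group, TMM, quasi-likelihood F-test, two-sided, Benjamini-Hochberg adjusted p under 0.05 over all genes tested). All 12 libraries shared 1 fit with a mean per group. The fit against hypoxia 1 alone dropped hypoxia 2 and 3, so its hypoxia library is assumed to vary like the other groups. The correction fitted splines with 4 degrees of freedom over GC content and log length of GENCODE 29 transcripts in each library. Positions are from GENCODE 29 on GRCh38. Of the 51141 symbols, 40269 matched a RefSeq gene by name and 1992 by an older name. Alternatives used RLE and upper quartile scaling, other filters, DESeq2 1.42.0, limma-voom (limma 3.58.1), the replicate block, fewer libraries and each library left out.

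Members, gene lists and tests were chosen with earlier results of these data known. Named genes are the 6 highest and 6 lowest called coding genes with at least 5 CPM and no overlap, the 8 highest and 8 lowest by the difference from hypoxia 1 among genes called in both fits, 19 genes of HIF signalling, copper and NRF2, and at most 4 members of each of 11 lists, those of smallest p. Lists of other cell types' markers were counted. Simulated counts were drawn around 1 mean per gene, apart from the changes put in. Unlike these data, they held no gradient of length or GC content and no library that lay apart. On simulated counts for this comparison (14447 genes, 100 changed at each size), 63% of 2-fold and 95% of 4-fold changes were called. With hypoxia 1 alone (15195 genes) the shares were 95% and 100%. Total counts over the 12 libraries ran from 13406858 to 24778944, and floors of 3 counts cover counting error only.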

Additional observations from a re-analysis of the deposited data

Results flagged for a closer look

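For 65 of 71 named genes the TEPA effect at low oxygen differed from that at normal oxygen by the interaction test (edgeR, adjusted p from 0.0236 to 0.0464 over all genes). Over all genes tested the share was 38.8%. Many named genes were chosen by their change between TEPA+hypoxia and hypoxia, which is part of this difference. The count of 65 is therefore no result about the named genes as a set. The value is the difference of the 2 log2 fold changes. Without hypoxia 2 and 3, 0 of these 65 were called (smallest adjusted p of any gene = 0.0643).

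The effect was more negative at low oxygen for 42 genes. The values were C4orf48 (-3.09), ROMO1 (-2.91), TYMP (-2.75), ATP5I (-2.53), PET100 (-2.47), TMEM160 (-2.39), RPL38 (-2.31), RPS21 (-2.26), METRN (-2.25), TMEM256 (-2.22) and MT2A (-2.11). Further values were ATOX1 (-2.10), NDUFB1 (-2.09), NDUFA1 (-1.94), ITPKA (-1.84), RPL27 (-1.76), TIMP1 (-1.69), COMMD1 (-1.63), CCS (-1.63), SCO2 (-1.63), MT1X (-1.63) and RPS13 (-1.58). Values nearer to 0 were VEGFB (-1.55), MT1E (-1.54), COX17 (-1.46), PGF (-1.43), ANGPTL4 (-1.37), COX7C (-1.36), TXN (-1.27), NDUFC2 (-1.23), ALDOA (-1.21), GAPDH (-1.14) and RBX1 (-1.07). The smallest values were EPHX1 (-1.01), TPI1 (-0.97), SOD1 (-0.93), PKM (-0.76), PIR (-0.74), ADM (-0.69), NQO1 (-0.61), BNIP3 (-0.46) and PGD (-0.44).

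The effect was more positive at low oxygen for 23 genes. They were CRYBG3 (3.62), ZBED6 (3.31), MBNL1 (3.24), MIB1 (3.20), NCOA3 (3.19), CHD9 (2.96), SYNE2 (2.92), XIAP (2.90), TCF12 (2.76), KIAA0754 (2.38) and ARID1B (2.04). Lower values were HIF1A (1.98), EP300 (1.71), KMT2A (1.42), RLF (1.29), CREBBP (1.24), MED1 (1.24), KDR (1.22), MTF1 (1.01), COL5A1 (0.99), LAMC1 (0.77), HSPG2 (0.65) and ARNT (0.63).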

How the results depend on the processing

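Against hypoxia 1 to 3, genes called higher numbered 2204 with only the 6 libraries compared, 1213 without hypoxia 2 and 3 and 2910 with the GC content and length correction and the replicate block, and genes called lower numbered 1090 without hypoxia 2 and 3. Leaving out each library in turn gave 3133 (without hypoxia 3) to 5765 (without hypoxia 1) higher and 3487 (without hypoxia 2) to 5100 (without hypoxia 1) lower. Against hypoxia 1 alone, higher calls numbered 1865 with no filter, and the correction gave 626 higher and 627 lower. With only 4 libraries 0 and 0 were called, and leaving out a TEPA+hypoxia library gave 905 to 1453 and 811 to 1269. Across genes, deviations of same-numbered libraries from their group means correlated at -0.36, 0.22 and -0.35. Hypoxia 1 with TEPA+hypoxia 3 was at 0.49. These values cannot decide if replicate numbers pair the libraries, because deviations within a group sum to 0 and hypoxia 2 and 3 lay apart. The replicate block gave 4266 and 4139 calls against the group. Against hypoxia 1 alone, where the block was chosen after seeing the data, it left almost no calls. For the difference between oxygen levels, calls were 0 and 0 without hypoxia 2 and 3, 699 and 1376 with the correction, 0 and 0 with correction and block, and 0 to 5261 and 0 to 4497 with 1 library left out.

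Signs turned for SLC2A1 (0.0311 with upper quartile scaling, 0.0072 with no filter, 0.0221 with the correction, 0.0252 with correction and block, -0.13 to 0.10 with 1 library left out) and DDIT4 (0.0407, 0.0163, 0.83 and 0.85 in the same order, 0.0014 by limma-voom, 0.26 without hypoxia 2 and 3, -0.12 to 0.17 with 1 library left out). With the correction, and with correction and block, ADM was at 0.0649 and 0.0759, SLC31A1 at -0.40 and -0.40, the zinc transporter median at -0.083 and -0.0817, the epithelial marker median at 0.0266 and 0.0271, and the integrated stress response median at 0.15 and 0.16. That last median was 0.0081 with no filter and 0.13 without hypoxia 2 and 3, where the DNA replication and mitosis median was -0.03. The cause was not tested. Over named genes and settings, 1589 values kept direction and call, 25 lost the call, 1 gained it and 18 turned sign. Where a library lay under the floor of 3 counts, as for XIAP, the depth limits the size of a change.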
